A study of Rattus norvegicus with 22 samples.

Results

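Cholesterol genes were followed in the rat spinal cord after contusion injury and after tamoxifen (TMX). The set holds 37 genes in 4 roles, listed by symbol for their roles, with earlier results of these data known. The roles are sterol synthesis enzymes, SREBP regulators, genes of the liver X receptor (LXR) and of cholesterol efflux and storage, and enzymes of oxysterols. Here, SREBP regulators include the genes of the SREBP transcription factors, Srebf1 and Srebf2, beside Insig1, Scap and the cholesterol carrier Stard4. Of the 37 genes, 35 were measured, each by 1 transcript cluster, among 15037 genes named on the array. They were 17 of 18 synthesis enzymes, 5 of 5 SREBP regulators, 10 of 10 LXR and efflux genes and 3 of 4 oxysterol enzymes. Hmgcs1 and Cyp46a1 had no annotated transcript cluster and were not analysed here.

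The arrays measured spinal cord RNA of 22 adult male Long-Evans rats, 1 array per rat. Sham/TMX- held 5 rats, Sham/TMX+ held 6, SCI/TMX- held 5 and SCI/TMX+ held 6. In the spinal cord injury (SCI) groups, the cord was exposed by laminectomy at the ninth thoracic level and struck by a rod of 10 g falling 50 mm, while sham rats had surgery of the soft tissue alone, so that contusion and laminectomy cannot be told apart in any difference between SCI and sham. TMX, a selective estrogen receptor modulator, was given once by intraperitoneal injection at 5 mg/kg 30 min after surgery, and the TMX- groups received the ethyl alcohol and corn oil vehicle. All rats also had anesthesia and tramadol. At 24 h, a 20 mm piece of cord was removed and divided sagittally. Each array is a separate rat, and the number of arrays limits the precision.

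Most cholesterol of the central nervous system is made there, since lipoproteins of the blood do not cross an intact barrier, and most of it lies in myelin. Synthesis runs from acetyl-CoA through mevalonate and squalene to lanosterol and then through demethylation, isomerization and reduction to cholesterol. When sterol in the endoplasmic reticulum is low, Scap carries the SREBP factors to the Golgi for cleavage and the enzymes are transcribed, and Insig proteins hold Scap back when sterol is high. Oxysterols, which are hydroxylated forms of cholesterol, activate LXR, which drives transporters that load cholesterol onto apolipoprotein E. TMX binds the sterol isomerase Ebp and the reductase Dhcr7, which together form the microsomal antiestrogen binding site.

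Injury separated the arrays along the first principal component of all transcript clusters, which held 51.1% of the variance. Animals 13c and 15c of SCI/TMX- stood apart from the other injured rats on the second component, with scores of 23.0 and 41.7 against -23.7 to 3.12, and results were also computed without them. Marker lists moved with injury in the same arrays. Between Sham/TMX- and SCI/TMX-, 8 of 11 measured oligodendrocyte markers fell and 1 rose, and 7 of 10 resting astrocyte markers fell and 1 rose. For neurons 10 of 11 fell, and for homeostatic microglia 5 of 7. By contrast, 10 of 11 rose for monocytes and macrophages, 6 of 7 for neutrophils and 5 of 5 for red blood cells. Among endothelial markers 1 of 7 rose and 2 fell, and 0 of 3 Schwann cell markers passed, against 12.8% of all clusters higher and 17.8% lower. The mean log2 signal of the macrophage markers was 5.90 to 6.11 in Sham/TMX- and 7.44 to 8.06 in SCI/TMX-, that of the oligodendrocyte markers 10.49 to 10.64 and 10.00 to 10.18, and that of the astrocyte markers 9.76 to 9.87 and 9.08 to 9.32. In RNA from whole tissue, fewer cells of a type and less RNA per cell cannot be told apart, and the part of cell makeup in the gene results was not tested.

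Injury changed 4 genes of oxysterols, esterification and efflux by the largest amounts in the set, while 13 of the 17 synthesis enzymes did not pass the test without TMX. Ch25h, which makes an oxysterol and is known as an interferon-induced gene of macrophages, was 4.67-fold higher after SCI without TMX, and Lcat, which esterifies cholesterol on lipoproteins, was 3.65-fold lower. Abcg1, a cholesterol exporter, and Cyp7b1, which breaks oxysterols down, were 2.06-fold and 2.10-fold lower. Among synthesis enzymes, Sqle and Fdps rose and Sc5d and Ebp fell. In all, 4 of 35 members rose and 8 fell at an adjusted p under 0.05, against 12.8% of all 23188 transcript clusters higher and 17.8% lower. With the additional minimum of 1 on the log2 fold change that the methods set for SCI, 4 members were called (Ch25h, Lcat, Abcg1 and Cyp7b1) against 3.05% of all clusters, and in 8 members the rats of the 2 groups did not overlap, against 21.0% of all clusters. The median log2 fold change over the 35 members was -0.10 and over all clusters -0.01. All but 2 members lay above the median signal, and over the 11594 clusters with at least that signal the median was -0.08. In a fit of those clusters alone, 6092 passed.

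All 3 measured oxysterol enzymes passed the test in both SCI comparisons, against 30.6% of all clusters without TMX and 34.1% with TMX. For Ch25h, the log2 signal was 6.07, 5.34, 5.72, 6.18 and 5.71 in the Sham/TMX- rats and 8.34, 7.94, 8.02, 7.96 and 7.86 in the SCI/TMX- rats. The lowest injured rat lay far above the highest sham rat. In rats given TMX, Ch25h ran from 5.60 to 6.31 with a median of 6.15 in sham and from 7.56 to 8.10 with a median of 7.92 after SCI, and again the groups did not overlap. Ch25h rose on the log2 scale by 2.22 (standard error, SE, 0.15, adjusted p = 2.18e-11) without TMX and 1.82 (SE 0.13, adjusted p = 9.66e-11) with TMX.

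Cyp7b1, whose product adds a further hydroxyl group to oxysterols on their way to bile acids, moved the other way. Its log2 signal was 7.40, 7.39, 7.40, 7.51 and 7.78 in Sham/TMX- and 6.53, 6.57, 6.30, 6.31 and 6.42 in SCI/TMX-. With TMX it ran from 7.58 to 7.88 with a median of 7.74 in sham and from 5.60 to 6.56 with a median of 6.39 after SCI. No injured rat reached any sham rat, and the lowest injured values, 5.60 and 5.87, belonged to animals 9b and 12b of SCI/TMX+. Cyp7b1 differed by -1.07 (SE 0.14, adjusted p = 1.25e-06) on the log2 scale without TMX and -1.51 (SE 0.13, adjusted p = 8.37e-10) with TMX. Cyp27a1, a mitochondrial sterol hydroxylase, averaged 5.44 ± 0.24 (SD, n = 5) in sham and 5.07 ± 0.18 (n = 5) in injured rats without TMX, and 5.51 ± 0.13 (n = 6) and 5.08 ± 0.18 (n = 6) in those with TMX. It fell in both comparisons, by 0.36 without TMX (adjusted p = 0.0171) and by 0.43 with TMX (adjusted p = 0.00211). Its mean signal over all rats was low, 5.28 against 5.46 for the median cluster.

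**Figure D1:**
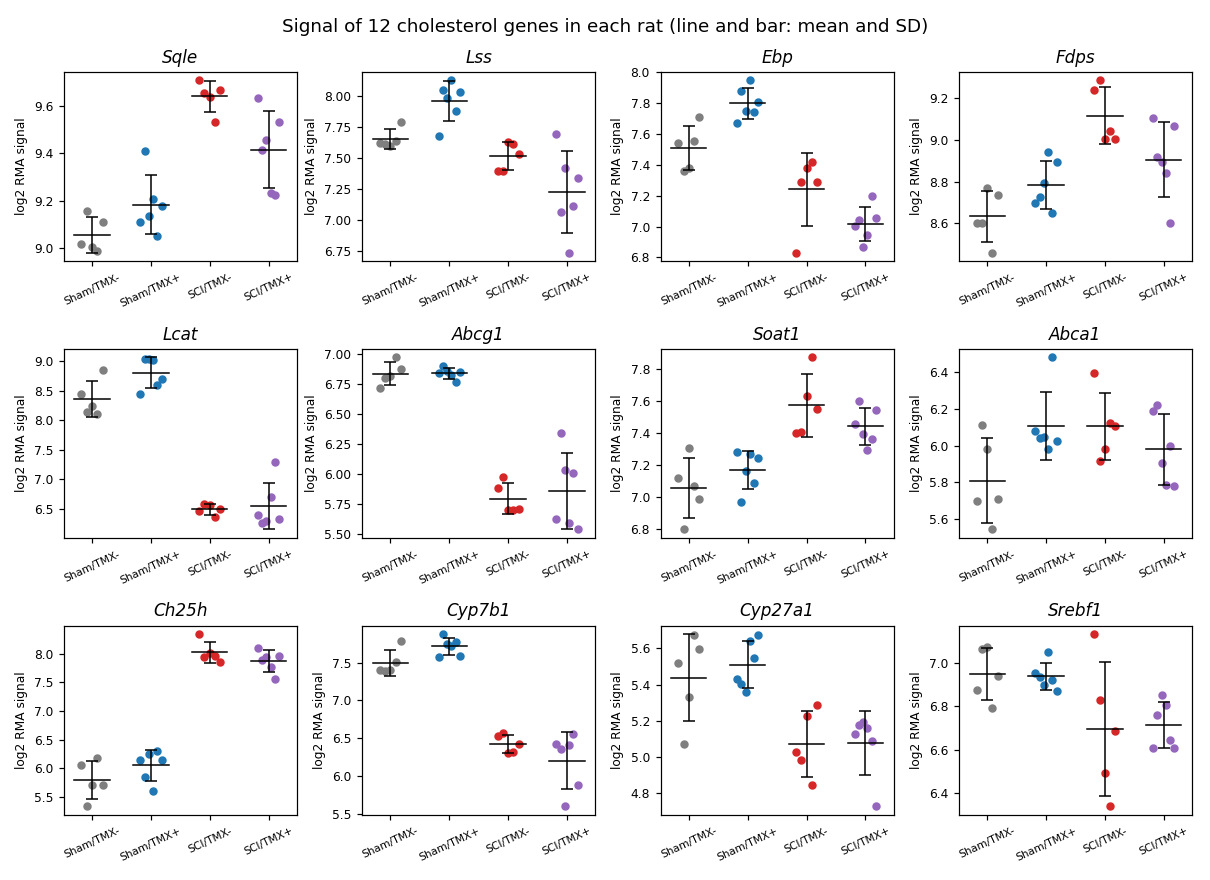
Log2 RMA signal (vertical axis) of 12 cholesterol genes in each of the 22 rats by group (horizontal axis), with the mean as a line and the SD as a bar. Each panel has its own scale, since signals of different genes are not comparable, and for Ch25h, Lcat, Abcg1 and Cyp7b1 no injured rat overlaps a sham rat of the same treatment.

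Of the 10 LXR and efflux genes, 1 rose and 4 fell after SCI without TMX, against 12.8% and 17.8% of all clusters, and 2 rose and 4 fell with TMX, against 14.3% and 19.7%. Lcat, secreted in the central nervous system mainly by astrocytes, had the largest decrease. The Sham/TMX- rats had log2 signals of 8.45, 8.14, 8.24, 8.11 and 8.85, and the SCI/TMX- rats 6.46, 6.58, 6.56, 6.36 and 6.50. Among rats given TMX, the sham values ran from 8.45 to 9.05 with a median of 8.86 and the injured values from 6.27 to 7.29 with a median of 6.36. Every injured rat lay below every sham rat, and animal 11b of SCI/TMX+ was the highest injured rat at 7.29. The log2 fold changes were -1.87 (SE 0.17, adjusted p = 4.33e-09) and -2.26 (SE 0.15, adjusted p = 2.18e-11), without and with TMX.

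Abcg1 exports cholesterol to lipoprotein particles and is a target of LXR. Its signals were 6.72, 6.80, 6.81, 6.97 and 6.88 in Sham/TMX- and 5.88, 5.98, 5.70, 5.70 and 5.70 in SCI/TMX-. In the TMX+ groups they ran from 6.77 to 6.90 with a median of 6.85 in sham rats and from 5.54 to 6.34 with a median of 5.81 in injured rats. The sham rats of both treatments lay within a narrow band that no injured rat entered. Abcg1 fell by 1.05 on the log2 scale without TMX (adjusted p = 1.60e-07) and by 0.99 with TMX (adjusted p = 6.37e-08), the latter just short of the minimum of 1. Abca1, the other LXR-driven exporter, did not pass in either comparison, with a difference on the log2 scale of 0.30 (SE 0.12, adjusted p = 0.0703) without TMX and -0.13 (SE 0.11, adjusted p = 0.424) with TMX.

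Soat1, which esterifies cholesterol in the endoplasmic reticulum for storage in droplets, rose. Signals were 7.12, 6.79, 7.31, 7.07 and 6.98 in Sham/TMX- and 7.40, 7.41, 7.63, 7.87 and 7.55 in SCI/TMX-. With TMX they ran from 6.97 to 7.28 with a median of 7.20 in sham and from 7.29 to 7.60 with a median of 7.42 after SCI. The 2 ranges with TMX were separated by only a small gap. Soat1 rose on the log2 scale by 0.52 (SE 0.10, adjusted p = 3.20e-04) without TMX and 0.27 (SE 0.09, adjusted p = 0.0252) with TMX.

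Apoe, the main apolipoprotein of the central nervous system, released by astrocytes and macrophages, fell slightly but without overlap in both comparisons, by 0.25 without TMX (adjusted p = 0.0131) and by 0.22 with TMX (adjusted p = 0.0126). Its means in the sham rats were 11.74 ± 0.05 without (SD, n = 5) and 11.79 ± 0.10 with TMX (n = 6), and in the injured rats 11.50 ± 0.08 without (n = 5) and 11.57 ± 0.09 with TMX (n = 6). Nr1h2, the LXR form found in most cells, had log2 fold changes of -0.28 (SE 0.09, adjusted p = 0.0198) and -0.17 (SE 0.08, adjusted p = 0.119), without and with TMX, from means in sham of 8.17 ± 0.13 without and 8.00 ± 0.08 with TMX, and after SCI of 7.89 ± 0.18 and 7.83 ± 0.10. For Nr1h3, the LXR form of macrophages and liver, they were -0.12 (SE 0.13, adjusted p = 0.519) and -0.10 (SE 0.12, adjusted p = 0.545), with group means of 6.41 to 6.54. Mylip, an LXR target that marks lipoprotein receptors for breakdown, had log2 differences of -0.15 (SE 0.12, adjusted p = 0.36) and -0.37 (SE 0.11, adjusted p = 0.00889), from means of 5.40 ± 0.19, 5.45 ± 0.25, 5.25 ± 0.15 and 5.08 ± 0.13 in the order just given.

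Npc1 and Npc2 release cholesterol from lysosomes. Between sham and SCI in rats given TMX, Npc1 rose by 0.27 (SE 0.08, adjusted p = 0.011) on the log2 scale, and between sham and SCI without TMX the difference was 0.13 (SE 0.09, adjusted p = 0.295). Its signals were 8.15, 8.17, 8.15, 8.03 and 8.08 in Sham/TMX-, and 8.12, 8.08, 8.39, 8.15 and 8.50 in SCI/TMX-. They ran from 8.12 to 8.27 with a median of 8.24 in Sham/TMX+ and from 8.31 to 8.72 with a median of 8.48 in SCI/TMX+. The injured rats given TMX all lay above the sham rats given TMX, whereas 3 of the 5 injured rats without TMX lay within the range of their shams. For Npc2 the log2 difference was -0.06 (SE 0.08, adjusted p = 0.617) without and -0.01 (SE 0.08, adjusted p = 0.96) with TMX, and its group means lay between 9.12 and 9.23.

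Among the 17 synthesis enzymes, 2 rose and 2 fell after SCI without TMX, with a class median log2 fold change of -0.02, and the share that passed, 23.5%, lay below the 30.6% of all clusters. With TMX, 1 rose and 7 fell, 47.1% against 34.1% of all clusters, with a class median of -0.21. These enzymes had high signals, above those of 62.5% (Mvd) to 99.2% (Msmo1) of clusters. In a fit of only the clusters with at least the median signal, 6092 of 11594 passed without TMX and 6534 with TMX. Both shares were larger than those of the synthesis enzymes, and the medians of these clusters were -0.08 and -0.06. Sqle, the epoxidase that acts at a rate-limiting step after squalene, rose in both. Its signals were 9.02, 9.16, 9.00, 8.99 and 9.11 in Sham/TMX- and 9.71, 9.66, 9.64, 9.53 and 9.67 in SCI/TMX-. With TMX they ran from 9.05 to 9.41 with a median of 9.16 in sham and from 9.22 to 9.63 with a median of 9.44 after SCI. Without TMX all injured rats lay above all sham rats, whereas with TMX the groups overlapped. Sqle rose on the log2 scale by 0.58 (SE 0.09, adjusted p = 9.78e-06) without TMX and 0.23 (SE 0.08, adjusted p = 0.0252) with TMX.

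Fdps, which makes farnesyl diphosphate for sterols and for prenylated proteins, had signals of 8.60, 8.60, 8.77, 8.46 and 8.74 in Sham/TMX- and 9.24, 9.29, 9.00, 9.04 and 9.01 in SCI/TMX-, without overlap. In the groups given TMX it ran from 8.65 to 8.94 with a median of 8.76 in sham and from 8.60 to 9.10 with a median of 8.91 after SCI, where the groups overlapped. Fdps rose by 0.48 (SE 0.10, adjusted p = 3.62e-04) on the log2 scale without TMX, and its difference with TMX was 0.12 (SE 0.09, adjusted p = 0.33).

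Other synthesis enzymes fell, more of them in rats given TMX. Ebp, the isomerase to which TMX binds, had log2 signals of 7.54, 7.36, 7.38, 7.55 and 7.71 in Sham/TMX- and 6.83, 7.29, 7.38, 7.42 and 7.29 in SCI/TMX-. The range with TMX was from 7.67 to 7.95 with a median of 7.78 in sham rats and from 6.87 to 7.20 with a median of 7.02 in injured rats. The groups overlapped without TMX and were well separated with TMX. Ebp was 1.20-fold lower after SCI without TMX, on the log2 scale -0.27 (SE 0.10, adjusted p = 0.0482), and 1.72-fold lower with TMX, on the log2 scale -0.78 (SE 0.09, adjusted p = 2.70e-07).

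Lss, which closes the sterol rings to lanosterol, had signals of 7.62, 7.61, 7.60, 7.64 and 7.79 in Sham/TMX- and 7.39, 7.40, 7.63, 7.61 and 7.53 in SCI/TMX-. With TMX they ran from 7.68 to 8.13 with a median of 8.01 in sham and from 6.73 to 7.69 with a median of 7.23 after SCI. The injured rats given TMX were the most widely spread of the groups, with animal 7b at 7.69 and animal 10b at 6.73, and only 7b reached the sham range. Its log2 difference was -0.14 (SE 0.13, adjusted p = 0.45) without and -0.73 (SE 0.11, adjusted p = 1.38e-05) with TMX. Nsdhl, a dehydrogenase that removes methyl groups from sterols, had signals of 6.62, 6.53, 6.63, 6.86 and 6.82 in Sham/TMX- and 6.05, 6.40, 6.80, 6.40 and 6.62 in SCI/TMX-, which overlapped. It ran from 6.85 to 7.10 with a median of 6.96 in Sham/TMX+ and from 6.30 to 6.60 with a median of 6.50 in SCI/TMX+, which did not. Its log2 fold changes were -0.24 (SE 0.11, adjusted p = 0.108) and -0.49 (SE 0.10, adjusted p = 3.67e-04), without and with TMX.

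With TMX, Fdft1, the squalene synthase, fell by 0.53 (adjusted p = 8.55e-05), Dhcr7, the last reductase, by 0.31 (adjusted p = 0.0149), Mvk, the mevalonate kinase, by 0.31 (adjusted p = 0.0285) and Acat2, the cytosolic thiolase at the start of the pathway, by 0.28 (adjusted p = 0.00779). Without TMX, the log2 fold changes of these 4 enzymes were -0.24, -0.15, -0.13 and 0.13, none of which passed. Group means, sham without and with TMX and then SCI without and with TMX, were 8.86 ± 0.15, 9.03 ± 0.10, 8.62 ± 0.23 and 8.49 ± 0.16 for Fdft1, and 7.65 ± 0.13, 7.73 ± 0.22, 7.50 ± 0.09 and 7.42 ± 0.18 for Dhcr7. For Mvk they were 7.89 ± 0.26, 8.02 ± 0.17, 7.77 ± 0.17 and 7.71 ± 0.16. Sc5d, the desaturase that follows Ebp, fell without TMX by 0.32 (adjusted p = 0.0211) and differed by -0.21 (SE 0.10, adjusted p = 0.0978) on the log2 scale with TMX, from means of 10.08 ± 0.11, 10.03 ± 0.11, 9.76 ± 0.28 and 9.82 ± 0.08 in the same order.

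The other synthesis enzymes did not pass in either SCI comparison. These were Idi1, the isopentenyl diphosphate isomerase (0.07 without TMX and -0.26 with TMX), the decarboxylase Mvd (-0.06 and -0.0035), the kinase Pmvk (-0.02 and -0.21), the lanosterol demethylase Cyp51 (0.25 and -0.11), the methylsterol oxidase Msmo1 (0.06 and -0.12), the ketosteroid reductase Hsd17b7 (0.27 and -0.19) and the sterol reductase Tm7sf2 (0.03 and -0.14). Msmo1 had similar means in all 4 groups, with means in sham of 10.40 ± 0.08 without and 10.43 ± 0.10 with TMX, and after SCI of 10.46 ± 0.14 and 10.31 ± 0.15. The group means of Mvd lay between 6.17 and 6.22, those of Pmvk between 6.45 and 6.72 and those of Tm7sf2 between 7.52 and 7.66.

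**Figure D2:**
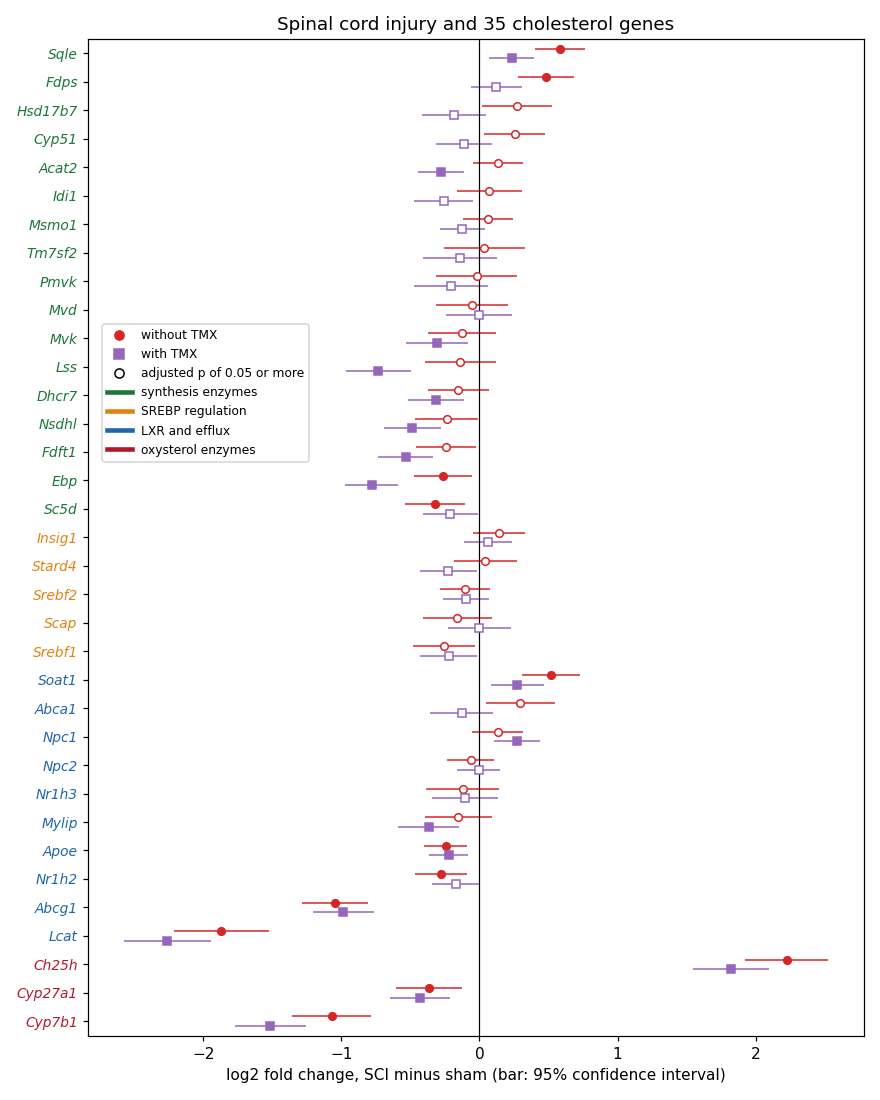
Log2 fold change of SCI minus sham (horizontal axis, bars are 95% confidence intervals of limma) for the 35 measured genes (vertical axis), without TMX as circles and with TMX as squares, filled where the adjusted p was under 0.05. Gene names are coloured by role, and among the synthesis enzymes the squares of Ebp at -0.78 and Lss at -0.73 lie farthest from 0.

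Of the 5 SREBP regulators, 0 passed in either SCI comparison. At an unadjusted p under 0.05 there were 1 of 5 without TMX and 2 of 5 with TMX, against 38.9% and 41.6% of all clusters. Srebf1, the SREBP gene known for fatty acid synthesis, had signals of 6.88, 7.06, 7.07, 6.79 and 6.94 in Sham/TMX- and 7.13, 6.83, 6.49, 6.34 and 6.68 in SCI/TMX-, where animal 13c exceeded every sham rat. With TMX it ran from 6.87 to 7.05 with a median of 6.93 in sham and from 6.61 to 6.85 with a median of 6.70 after SCI, and these ranges did not overlap. The log2 fold changes were -0.25 (SE 0.11, adjusted p = 0.0805) and -0.22 (SE 0.10, adjusted p = 0.086), without and with TMX.

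Stard4, a carrier of free cholesterol within cells, had signals of 6.62, 6.72, 6.37, 6.77 and 6.52 in Sham/TMX- and 6.50, 6.93, 6.74, 6.43 and 6.61 in SCI/TMX-. The groups overlapped, with animal 15c above every sham rat. With TMX it ran from 6.59 to 6.84 with a median of 6.63 in sham and from 6.21 to 6.68 with a median of 6.48 after SCI, where the log2 difference was -0.22 (SE 0.10, adjusted p = 0.0903). Srebf2, the SREBP gene that drives sterol synthesis, had log2 differences of -0.10 without and -0.10 with TMX, Insig1 had 0.14 and 0.06, and Scap had -0.16 and -0.000862. The group means were 7.76 to 7.93 for Srebf2, 9.21 to 9.36 for Insig1 and 6.47 to 6.68 for Scap.

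With TMX, the injured and sham rats differed at an adjusted p under 0.05 in 17 members, 4 higher and 13 lower, against 14.3% of all clusters higher and 19.7% lower. In the fit of clusters with at least the median signal, 6534 of 11594 passed in either direction. By the thresholds of the methods 3 were called, against 3.04% of all clusters, and in 12 members the 2 groups did not overlap, against 20.9%. The comparisons with and without TMX share no array. In 9 members both passed in the same direction, with Ch25h, Sqle and Soat1 higher and Lcat, Abcg1, Cyp7b1, Cyp27a1, Apoe and Ebp lower in each. Over all clusters, 24.2% did so, and 9 of 35 is near that share. A member that passed in one comparison and not in the other is not thereby shown to differ between them, and the test of that difference is the interaction given with the TMX comparisons.

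Several calls near the threshold depended on single arrays. Without TMX, the call of Ebp was lost in 21 of 30 alternative settings, with log2 fold changes between -0.31 and -0.15. Leaving out 13c, the lowest SCI/TMX- rat for Ebp, gave -0.16 (adjusted p = 0.191), and the call was also lost without 1a, 5a, 6a, 15c or 18c, or without 19d, 20d, 21d, 23d, 24d, 7b, 8b, 10b or 12b, rats given TMX that enter only the common spread. Sc5d lost its call without 1a (-0.30), 3a (-0.29), 13c (-0.27) or 15c (-0.22), Nr1h2 without 4a (-0.25), 6a (-0.24) or 15c (-0.21), and Cyp27a1 without 5a (-0.31), 6a (-0.32) or 17c (-0.31). Without both 13c and 15c, the log2 fold change was -0.12 for Sc5d (adjusted p = 0.359), -0.17 for Nr1h2 (adjusted p = 0.204), -0.32 for Cyp27a1 (adjusted p = 0.0891) and -0.15 for Ebp (adjusted p = 0.297), and 9 members passed. With TMX, Mvk lost its call without 20d (-0.29), 24d (-0.27), 8b (-0.26) or 12b (-0.29), Sqle without 19d (0.22), 23d (0.21), 7b (0.19) or 12b (0.21), and Soat1 without 20d (0.23), 23d (0.26), 8b (0.24) or 12b (0.25).

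TMX changed no member at an adjusted p under 0.05 in sham rats, in injured rats or as the average of both. The differences of single genes were small, all within 0.45 on the log2 scale, and in sham rats most synthesis enzymes were higher with TMX while in injured rats most were lower. Of 17 synthesis enzymes, 14 had a higher mean in Sham/TMX+ than in Sham/TMX- (median log2 fold change 0.13), and 14 had a lower mean in SCI/TMX+ than in SCI/TMX- (median -0.16). These 2 comparisons share no array, but the enzymes shared part of their variation between rats, so that such counts are not of independent genes. Of all 23188 clusters, 11612 were higher with TMX in sham rats and 11962 were lower with TMX in injured rats, with medians of 0.0002 and -0.01. Adjusted p-values under 0.05 were reached by 0.0129% of all clusters in sham rats, by 0.0216% in injured rats and by 0.0302% as the average. At an unadjusted p under 0.05 there were 5 of 35 members in sham rats, against 5.46% of all clusters, 8 in injured rats, against 10.4%, and 2 for the average, against 9.13%. The thresholds of the methods for TMX, a log2 difference beyond 0.7 at an unadjusted p under 0.05, called 0 members in either comparison, against 0.0302% of clusters in sham and 0.129% in injured rats.

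In sham rats, the 5 members below the unadjusted threshold were all higher with TMX. Ebp, given above by rat, was higher by 0.29 (SE 0.10, unadjusted p = 0.0063, adjusted p = 0.786) on the log2 scale, and the 2 groups overlapped by a single rat, animal 6a of Sham/TMX- at 7.71 against a lowest Sham/TMX+ rat at 7.67. The difference was 0.31 (SE 0.12, unadjusted p = 0.0173, adjusted p = 0.828) for Lss, and in the same terms Nsdhl had 0.26 (SE 0.10, unadjusted p = 0.0193, adjusted p = 0.831) and Lcat had 0.45 (SE 0.16, unadjusted p = 0.00969, adjusted p = 0.802). For Abca1, the exporter that starts lipoprotein assembly, the signals were 5.70, 6.11, 5.98, 5.54 and 5.71 in Sham/TMX- and ran from 5.98 to 6.48 with a median of 6.04 in Sham/TMX+. Animal 23d was the highest, and the difference was 0.30 (SE 0.12, unadjusted p = 0.017, adjusted p = 0.828). Without 23d it was 0.22 and without animal 5a 0.23, both above an unadjusted p of 0.05, and Nsdhl was above it without 3a (0.22). Of the oligodendrocyte markers, 10 of 11 had a higher mean with TMX. At an unadjusted p under 0.05 there were 4 of these 11, all higher, against 5.46% of all clusters, and 0 passed an adjusted p of 0.05. Their mean log2 signals were 10.49 to 10.64 in Sham/TMX- and 10.63 to 10.73 in Sham/TMX+. Means were also higher for 8 of 10 astrocyte and 8 of 11 neuron markers, against 11612 of 23188 clusters. They were lower for 7 of 11 macrophage, 6 of 7 neutrophil, 4 of 7 homeostatic microglia and 5 of 5 red blood cell markers. The part of cell makeup in the differences was not tested.

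In injured rats, 7 synthesis enzymes were lower with TMX and Npc1 was higher at an unadjusted p under 0.05. Acat2 was 7.85, 7.99, 7.75, 7.76 and 7.61 in SCI/TMX- and ran from 7.34 to 7.63 with a median of 7.48 in SCI/TMX+. All but 1 of the injured rats given TMX lay below the lowest rat without it, and the difference was -0.29 (SE 0.08, unadjusted p = 0.00193, adjusted p = 0.211). In sham rats, Acat2 was 7.67, 7.54, 7.63, 7.63 and 7.82 without TMX and ran from 7.62 to 7.93 with a median of 7.76 with TMX. Hsd17b7, the ketosteroid reductase, was 8.46, 8.09, 8.29, 8.13 and 8.27 in SCI/TMX- and ran from 7.67 to 8.35 with a median of 7.80 in SCI/TMX+, where animal 7b was as high as the vehicle rats. Its difference was -0.37 (SE 0.12, unadjusted p = 0.00452, adjusted p = 0.249). The sham rats overlapped, with Hsd17b7 at 8.02, 7.72, 7.93, 7.94 and 8.26 without TMX and from 7.81 to 8.29 with a median of 8.03 with TMX.

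Idi1 was 8.03, 7.72, 8.20, 8.11 and 8.18 in SCI/TMX- and ran from 7.51 to 8.03 with a median of 7.88 in SCI/TMX+, and in the sham groups it was 7.95, 7.96, 8.00, 7.89 and 8.09 without TMX and ran from 7.83 to 8.25 with a median of 8.12 with TMX. The 4 groups overlapped widely, with a difference of -0.24 (SE 0.11, unadjusted p = 0.0344, adjusted p = 0.431) in injured rats. For Sqle, Lss, Fdps and Ebp the differences were -0.22, -0.29, -0.21 and -0.22, with unadjusted p-values of 0.0127, 0.025, 0.0329 and 0.03. These 4 values were near the threshold. Ebp no longer reached it without 15c, 16c, 17c, 18c, 9b or 10b (-0.21 to -0.18), Lss without 16c, 17c, 8b or 10b (-0.26 to -0.19), and Fdps without 13c, 15c, 10b or 11b (-0.20 to -0.15). Sqle was -0.20 without 13c and 15c, above the threshold, and Idi1 lost it without 16c, 17c, 18c, 8b or 10b (-0.23 to -0.19). Npc1 was higher with TMX by 0.24 (SE 0.09, unadjusted p = 0.00968, adjusted p = 0.306), and by 0.14, above the threshold, without animals 13c and 15c. The mean signals of marker lists overlapped between the injured groups, and 0 of the 35 members were without overlap either. Macrophage markers were at 7.44 to 8.06 without and 7.36 to 7.76 with TMX, and oligodendrocyte markers at 10.00 to 10.18 and 9.95 to 10.28. With TMX, 7 of 11 oligodendrocyte markers had a higher mean, but 2 were lower at an unadjusted p under 0.05. Means were lower for 9 of 11 macrophage and higher for 5 of 5 red blood cell markers (median 0.52). The part of the marked cells in the differences was not tested.

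**Figure D3:**
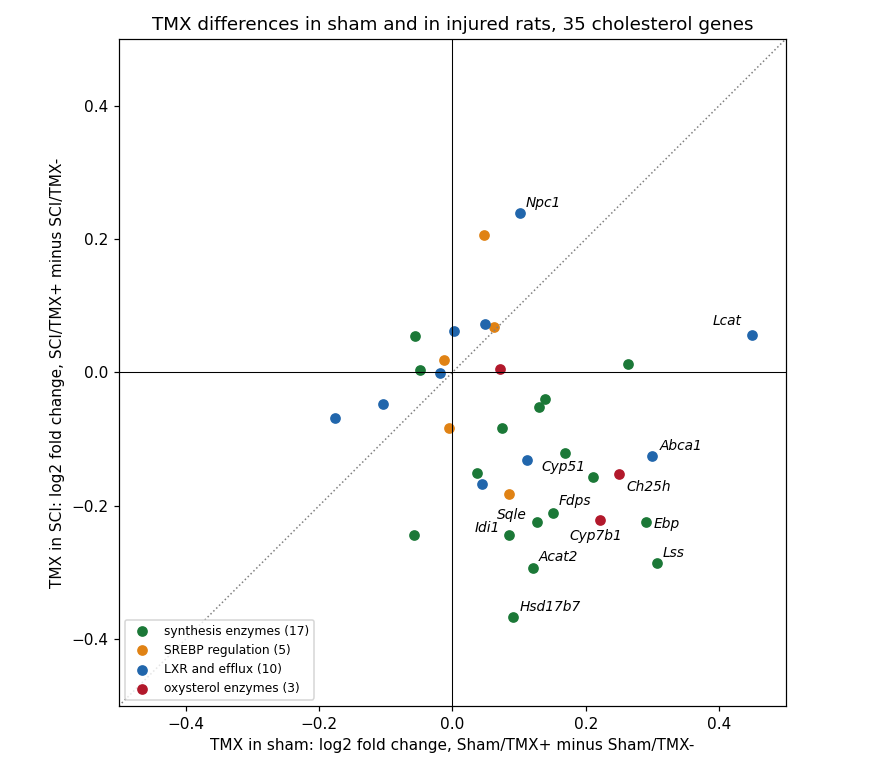
Log2 fold change of TMX in sham rats (horizontal axis) and in injured rats (vertical axis) for the 35 genes, coloured by role, with the line of equal change dotted and genes named where the interaction had an unadjusted p under 0.05, beside Npc1, Lcat and Ch25h. Most synthesis enzymes lie at the lower right, higher with TMX in sham and lower with TMX in injured rats, and 0 of the 35 passed an adjusted p of 0.05 on either axis.

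The interaction, which is the TMX difference in injured rats minus that in sham rats, passed an adjusted p of 0.05 in 0 of 35 members and in 0% of all clusters. At an unadjusted p under 0.05, 10 of 35 members (28.6%) were found against 6.84% of all clusters, and all 10 were negative, whereas over all clusters 820 were positive and 765 negative. They were 8 of the 17 synthesis enzymes, with Abca1 and Cyp7b1. Ebp had the smallest p of the set, at -0.51 (SE 0.14, unadjusted p = 9.74e-04, adjusted p = 0.432), followed by Lss at -0.59 (SE 0.17, unadjusted p = 0.00182, adjusted p = 0.464) and Acat2 at -0.41 (SE 0.12, unadjusted p = 0.00194, adjusted p = 0.464). In 15 of 17 synthesis enzymes the interaction was negative, with a median of -0.29, and so it was in 3 of 3 oxysterol enzymes, with a median of -0.40, beside medians of 0.01 for the SREBP regulators and 0.02 for the LXR and efflux genes. Some marker lists also leaned to this sign, with 7 of 7 endothelial (median -0.22) and 9 of 11 oligodendrocyte markers negative (median -0.13). So were 7 of 11 markers of monocytes and macrophages (median -0.08) and 2 of 3 of Schwann cells (median -0.10). Other lists did not, with 8 of 11 neuron (median 0.04), 4 of 7 homeostatic microglia (median 0.02) and 5 of 5 red blood cell markers positive (median 0.66). Astrocyte markers were split, 5 positive and 5 negative, and 4 of 7 neutrophil markers were negative (median -0.0009). Of all these markers, 1 endothelial, 2 oligodendrocyte and 3 macrophage markers had an unadjusted p under 0.05. The part of the marked cells in the gene results was not tested. Genes of 1 class shared part of their variation between rats, so that their counts are not independent.

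For Cyp51, which acts on lanosterol, the sham signals were 9.83, 10.18, 9.73, 9.91 and 9.95 without TMX and ran from 9.87 to 10.26 with a median of 10.17 with TMX. The injured signals were 10.03, 10.12, 10.21, 10.33 and 10.19 without TMX and ran from 9.79 to 10.30 with a median of 10.00 with TMX. All ranges overlapped, and the interaction was -0.37 (SE 0.15, unadjusted p = 0.0184, adjusted p = 0.653). For Hsd17b7, Fdps, Sqle and Idi1 it was -0.46, -0.36, -0.35 and -0.33, and for Abca1 and Cyp7b1 -0.42 and -0.44, with unadjusted p-values from 0.00652 for Sqle to 0.0434 for Idi1. The value of Idi1 lost the unadjusted threshold in 14 of 29 alternative settings, each of which left out 1 rat, with values from -0.33 to -0.27. Without 13c and 15c, the interactions of Fdps (-0.26) and Cyp7b1 (-0.36) no longer reached it, and Cyp7b1 (-0.38) did not without 12b.

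The mean of the 17 synthesis enzymes in each rat, taken after each gene's mean over the 22 rats was subtracted, was lowest in SCI/TMX+. It ran from -0.06 to 0.15 with a median of -0.06 in the sham rats without TMX, and from -0.03 to 0.24 with a median of 0.16 in those with TMX. In injured rats it ran from -0.07 to 0.09 with a median of 0.01 without TMX, and from -0.24 to 0.01 with a median of -0.16 with TMX. Animals 8b, 10b and 11b, all of SCI/TMX+, were the only rats below -0.2, at -0.21, -0.24 and -0.22. Animals 7b and 12b of the same group lay within the range of the other groups, at 0.01 and -0.04.

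**Figure D4:**
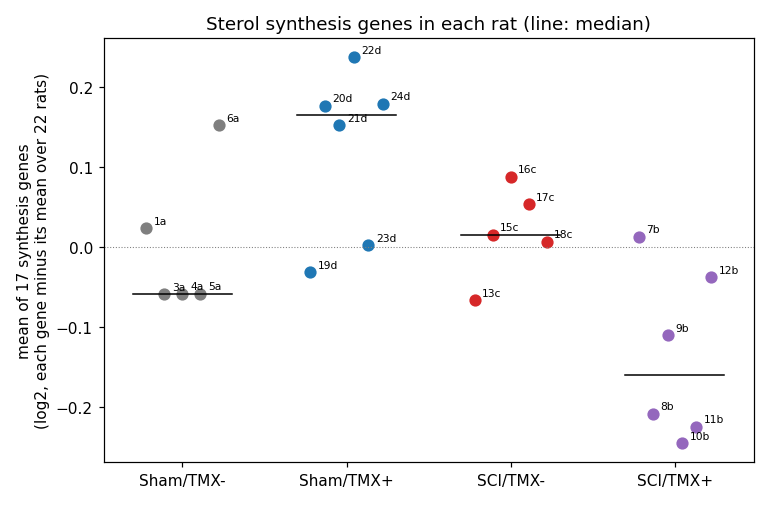
Mean log2 signal of the 17 synthesis enzymes in each rat after subtraction of each gene's mean over the 22 rats (vertical axis), by group (horizontal axis), with animal labels and the group median as a line. The medians are -0.06, 0.16, 0.01 and -0.16 from left to right, and each group overlaps at least 1 other.

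Within the groups, the synthesis enzymes varied together from rat to rat. Across the 22 rats, after subtraction of group means, the 136 pairs of synthesis enzymes had a median Pearson r of 0.25, and 24.3% of them exceeded 0.5, beside a median of 0 and 3.09% over all pairs of transcript clusters. All pairs come from the same arrays and animals, so that these values are a description. The pairs over all clusters include clusters of low signal, and no set of like signal was computed. The highest pair was Idi1 and Msmo1 at 0.87, followed by Fdft1 and Msmo1 at 0.79 and Idi1 and Fdft1 at 0.79. Fdft1 and Lss had the highest median r with the other synthesis enzymes, 0.49 and 0.44, and Dhcr7 had the lowest, 0.06. Among the regulators, Insig1, itself an SREBP target, had a median r of 0.29 with the synthesis enzymes and Srebf2 of 0.24, whereas Srebf1 had -0.27. Apoe ran the other way from the synthesis enzymes, with a median r of -0.30 and -0.75 with Msmo1. The 45 pairs of LXR and efflux genes had a median r of 0.04, and 0% exceeded 0.5. With the marker lists, the synthesis enzymes had median r values from -0.16 for astrocytes to 0.15 for monocytes and macrophages.

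**Figure D5:**
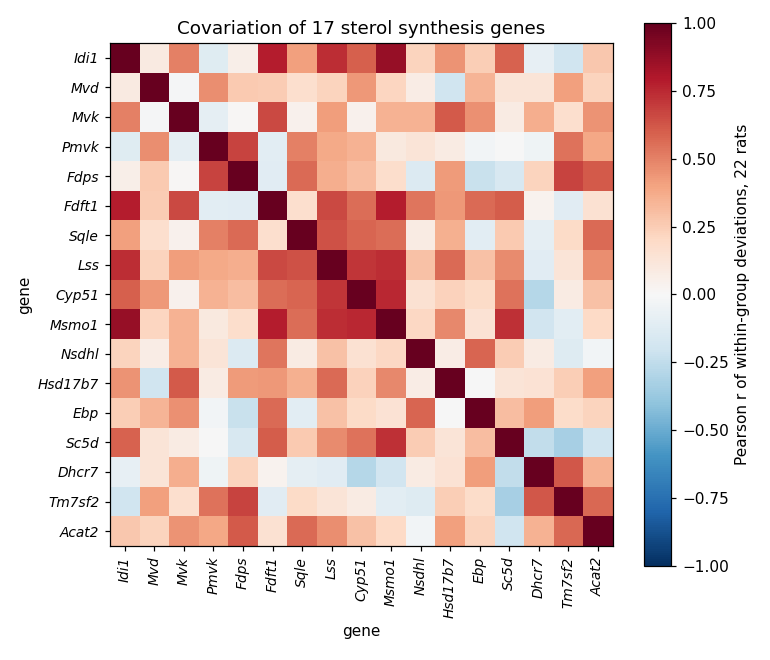
Pearson r between the 17 synthesis enzymes (both axes, same order) across 22 rats after subtraction of group means, on a colour scale from -1 to 1. Off the diagonal the highest cell is Idi1 with Msmo1 at 0.87, and the cells of Dhcr7 run from -0.29 with Cyp51 to 0.62 with Tm7sf2.

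Promoter sequences were examined because the synthesis enzymes varied together and SREBP factors are known to act with the CCAAT-binding factor NF-Y at many of their promoters. RefSeq entries of the rat build GRCr8, which hold 250 bases before and 50 after each start site, were found for 29 of the 35 genes. Searched on both strands, the letters CCAAT were present in 11 of 14 synthesis enzymes (78.6%), 3 of 4 SREBP regulators, 5 of 9 LXR and efflux genes and 1 of 2 oxysterol enzymes, and in 37.5% of all 33469 promoters. The sterol element TCACNCCAC was in 0 of the 29 and in 1.12% of all promoters, and its shorter core CACNCCAC, which every full match contains, was in Ebp, Acat2 and Insig1 and in 5.80% of all. A match is only a run of letters, and its absence from this window says nothing of the factors that bind there. No set of like promoters was compared, and the cause of the shared variation was not tested. The stretch from base -150 to base -31 relative to the start is given for the 6 synthesis enzymes that held a match there and had an unadjusted p under 0.05 in a TMX comparison or the interaction, and for the 2 esterification genes that moved oppositely, Lcat and Soat1, 5′ to 3′ on the strand of the gene, with CCAAT or its reverse complement ATTGG in capitals. Ebp lies at chrX:16971312-16971431, plus strand, Lss at chr20:12118261-12118380, minus strand, Nsdhl at chrX:155817210-155817329, plus strand, Fdps at chr2:176804847-176804966, minus strand, Idi1 at chr17:66547555-66547674, minus strand, Hsd17b7 at chr13:84722785-84722904, minus strand, Lcat at chr19:50748095-50748214, minus strand and Soat1 at chr13:71147703-71147822, minus strand.
Ebp: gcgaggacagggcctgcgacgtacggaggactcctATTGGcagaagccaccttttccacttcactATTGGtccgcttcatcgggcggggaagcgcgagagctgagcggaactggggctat
Lss: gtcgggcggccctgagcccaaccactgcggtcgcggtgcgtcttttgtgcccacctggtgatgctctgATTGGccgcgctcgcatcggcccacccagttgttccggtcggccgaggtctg
Nsdhl: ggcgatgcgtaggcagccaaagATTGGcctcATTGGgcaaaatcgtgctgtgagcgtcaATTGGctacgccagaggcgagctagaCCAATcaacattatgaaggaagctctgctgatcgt
Fdps: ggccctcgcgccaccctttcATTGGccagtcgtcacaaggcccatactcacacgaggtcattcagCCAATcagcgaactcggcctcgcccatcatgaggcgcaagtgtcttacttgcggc
Idi1: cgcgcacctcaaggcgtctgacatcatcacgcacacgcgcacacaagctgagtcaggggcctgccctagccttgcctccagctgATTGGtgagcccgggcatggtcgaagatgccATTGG
Hsd17b7: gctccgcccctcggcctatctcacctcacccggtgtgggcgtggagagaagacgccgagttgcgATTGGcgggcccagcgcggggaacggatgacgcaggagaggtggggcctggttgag
Lcat: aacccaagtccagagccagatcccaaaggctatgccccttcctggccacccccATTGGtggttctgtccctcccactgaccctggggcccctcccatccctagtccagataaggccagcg
Soat1: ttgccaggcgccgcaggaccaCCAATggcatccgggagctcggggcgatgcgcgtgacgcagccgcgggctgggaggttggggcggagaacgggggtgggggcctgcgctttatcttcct
Nsdhl held 4 matches in this stretch, Ebp, Fdps and Idi1 held 2 each, and Lss, Hsd17b7, Lcat and Soat1 held 1 each. Of the other synthesis enzymes below the same unadjusted p, Acat2 and Cyp51 held no CCAAT match in the whole window, and Sqle had no entry.

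Other genes of the same pathways were taken from lists of known function. Over all clusters, 12.8% rose and 17.8% fell without TMX, and 14.3% rose and 19.7% fell with TMX. Of 11 further SREBP pathway genes, 6 (54.5%) fell and 0 rose without TMX, and 9 (81.8%) fell and 0 rose with TMX. Among them, with log2 differences after SCI without TMX, were the fatty acid desaturase Fads2 at -0.81 (SE 0.12, adjusted p = 8.49e-06), the elongase Elovl6 at -1.01 (SE 0.15, adjusted p = 1.16e-05) and the desaturase Fads1 at -0.63 (SE 0.10, adjusted p = 1.18e-05). Of 24 genes of sterol uptake, transport and esters, 2 rose and 5 fell without TMX (29.2% in either direction, against 30.6% of all clusters), and 2 rose and 8 fell with TMX (41.7% against 34.1%). After SCI without TMX, Pltp, which transfers phospholipids between lipoproteins, had a log2 difference of -1.30 (SE 0.13, adjusted p = 4.56e-08). In the same comparison Abcg4, a sterol exporter of neurons and glia, had -1.23 (SE 0.15, adjusted p = 4.12e-07). Tspo, the outer mitochondrial protein used as a marker of activated microglia and macrophages, had 0.95 there (SE 0.12, adjusted p = 1.12e-06). Of 5 other genes of sterol and isoprenoid synthesis, 0 rose and 2 fell without TMX (Ggps1, the geranylgeranyl diphosphate synthase, -0.49, and the cytochrome b5 reductase gene Cyb5r3, -0.28), and 3 fell with TMX. Of 12 further LXR targets and oxysterol genes, 1 rose (Hsd3b7, an enzyme of bile acid synthesis, 0.53) and 1 fell (the partner receptor Rxra, -0.45) without TMX, and 2 rose and 1 fell with TMX, in both cases a smaller share than of all clusters. In the TMX comparisons and the interaction, 0 genes of these lists passed an adjusted p of 0.05. Of the 5 other synthesis genes, 4 had a higher mean with TMX in sham rats and 4 in injured rats. Of the 11 further SREBP pathway genes, 7 did in sham and 6 in injured rats. The interaction was negative in 3 of those 5 (median -0.003) and in 8 of those 11 (median -0.09). In both lists, 0 genes had an unadjusted p under 0.05 for the interaction.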

How the data were processed

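Spinal cord RNA of 22 rats was hybridised to Clariom S arrays, 1 array per rat. The authors normalised the arrays by RMA with oligo 1.56 and deposited log2 signals, which were used as deposited. RNA integrity numbers were at least 7. Array medians lay between 5.41 and 5.47, and 2 members, Mylip and Cyp27a1, had a mean signal below the median cluster. Probes were named through the platform annotation, and 15049 of 23188 transcript clusters had a gene.

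The 4 group means were fitted in limma 3.58.1 (R 4.3.3) over all clusters, with 18 residual and 6.99 prior degrees of freedom. Tests were two-sided, and p-values were adjusted by Benjamini-Hochberg over all clusters. A fold is 2 to the size of the log2 difference. Members and lists were chosen with earlier results of these data known. All members are described, some by the range of their group means. Values by rat (each rat in groups of 5, and the lowest, median and highest in groups of 6) are given for the 3 synthesis and 3 LXR or efflux genes, and the 2 genes of each other role, with the largest moderated t in an SCI comparison, and for members at an unadjusted p under 0.05 for TMX or the interaction. From other lists, up to 3 genes are named by the same t without TMX. The fit was tested on simulated data. Alternatives changed the variance model, normalisation, signal filter, array weights, replicate block and arrays included.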

Additional observations from a re-analysis of the deposited data

Results flagged for a closer look

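In 7 of 140 combinations of gene and group, a single rat lay farther from the rest of its group than Dixon's test allows at 95%, and chance alone gives about 1 in 20. Ebp was 6.83 in animal 13c of SCI/TMX-, against 7.29 to 7.42 in the other 4 rats. Lss was 7.79 in animal 6a of Sham/TMX-, against 7.60 to 7.64. Mvk was 8.07 in animal 16c of SCI/TMX-, against 7.65 to 7.74. Mvd was 6.53 in animal 12b of SCI/TMX+, against 6.03 to 6.15, and in the same rat Cyp27a1 was 4.73, against 5.09 to 5.19. In animal 23d of Sham/TMX+, Abca1 was 6.48 against 5.98 to 6.08, and Nr1h3 was 6.77 against 6.43 to 6.53. The causes were not tested.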

How the results depend on the processing

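The direction of each called difference was kept under every alternative tried. The thresholds of the methods gave 4 members for SCI without TMX and 3 with TMX, in place of 12 and 17, since they add a minimum fold, and an unadjusted p under 0.05 gave 10 for the interaction in place of 0. With 1 array left out, 10 to 14 members passed without TMX and 14 to 19 with TMX, and 0 in any TMX comparison or the interaction. Without 13c and 15c, 9 passed without TMX and 20 with TMX. With a replicate block, 11 and 17 members passed, and it ended the call of Ebp without TMX (adjusted p = 0.0507). The numbers share no animal: 31 same-numbered pairs had correlations of -0.21 to 0.23 with a median of 0.02, and 6 of 22 arrays matched best with their own number. Over all clusters, the count for TMX in SCI was 5, and 25 with trended robust variances, 11 with the block, 9 after quantile normalisation, 30 without low signals, 2 with array weights and 0 with only the groups compared. For TMX in sham it was 3, and 6, 2, 3, 1, 7 and 2 in the same order, and for the TMX average 7, and 26, 8, 9, 21 and 9 for the first 5 of these. The cause was not tested. Each member was taken at 1 cluster, the one with the highest mean where a gene had several, and other choices among clusters were not run.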
